A study of Mus musculus with 24 samples.

Results

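The 10 genes described here encode ligands and receptors of the VEGF and angiopoietin systems. They are the VEGF family ligands Vegfa, Vegfb, Vegfc and Pgf, the VEGF receptors Kdr and Flt1, the angiopoietins Angpt1 and Angpt2, and the receptors Tek and Tie1. They were chosen by name, with earlier results of these data known. All 10 were found among the 54418 rows of the count table and among the 19050 genes that passed the filter on low counts. RNA was sequenced from stromal cells of the mouse small intestine and colon, with Epcam-bearing (epithelial) and CD45-bearing (leukocyte) cells absent by label. Cells of each tissue fell into 4 groups, CD31- Rspo3-, CD31+ Rspo3-, CD31- Rspo3+ and CD31+ Rspo3+, with 3 libraries in each of the 8 groups. CD31 is the surface protein made from Pecam1 and marks endothelium. The Rspo3 sign is the expression of a GFP transgene for Rspo3, a secreted enhancer of Wnt signaling, and is a property of the reporter rather than of Rspo3 protein. All animals were 8 to 12 weeks old on a C57Bl6 background, and the labels give no treatment for any group. Neither the construct of the transgene nor the number of animals behind a library is given in the sources used here. If the 3 libraries of a group came from a shared pool, the p-values below measure technical spread only.

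VEGF ligands act on receptor tyrosine kinases of endothelial cells. Vegfa binds Kdr, the main signaling receptor of blood vessel growth, and Flt1, which binds Vegfa tightly, signals weakly and is often described as a decoy. Vegfb and Pgf bind Flt1, while Vegfc binds Flt4, the receptor of lymphatic growth, and after processing also Kdr. Angpt1 activates the receptor Tek and steadies vessels, Angpt2 acts on the same receptor as a context-dependent antagonist, and Tie1 is a partner of Tek with no well-established ligand of its own. In the intestine these genes serve the capillary network of the villus and the lymphatic lacteals that take up fat.

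In the GENCODE M21 annotation of GRCm38 all 10 are protein-coding genes. Among the ligands, Vegfa lies at chr17:46016993-46032369, Vegfb at chr19:6982473-6987651, Vegfc at chr8:54077606-54187096 and Pgf at chr12:85166635-85177790. Angpt1 lies at chr15:42424723-42676977 and Angpt2 at chr8:18690263-18741562. Among the receptors, Kdr lies at chr5:75932827-75978458 and Flt1 at chr5:147561604-147726011, and Tek at chr4:94739289-94874976 and Tie1 at chr4:118471191-118490061.

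Library totals ran from 8462041 to 29214487 estimated counts (median 17881736), and the summed count of a member over all libraries ran from 7501 for Angpt1 to 244323 for Kdr. Levels within a gene are given in CPM, counts scaled to the size of the library with TMM factors, and levels are compared between genes only in TPM, which is corrected for transcript length. Pecam1 and Rspo3 were checked against the labels. Pecam1 was 1078 to 1229 CPM in small intestinal CD31+ Rspo3- libraries against 10.7 to 16.3 CPM in CD31- Rspo3- libraries, and its CD31+ and CD31- libraries did not overlap in any tissue or Rspo3 gate. Rspo3 was 303 to 449.9 CPM in small intestinal CD31+ Rspo3+ libraries against 15.3 to 24.1 CPM in CD31+ Rspo3- libraries, and again no Rspo3+ library overlapped the Rspo3- libraries of its gate. The summed level of 15 endothelial marker genes was 5045 to 8816 CPM in CD31+ libraries and 170 to 347 CPM in CD31- libraries. Within CD31+ cells the Rspo3 gate also separated endothelial markers. A sum of 14 lymphatic markers was 36150.3 to 41286 CPM in the small intestinal and 46948 to 58762 CPM in the colonic Rspo3+ libraries, against 4319 to 8046 and 2646 to 3204 CPM in the Rspo3- libraries, and a sum of 18 blood vessel markers was 691 to 1448 CPM against 14190 to 21322 CPM. Within CD31- cells, 14 fibroblast markers summed to 106407 to 118107 CPM in small intestinal Rspo3+ and 20121 to 27256 CPM in Rspo3- libraries, and 11 epithelial markers to 74.3 to 260.4 and 7540.4 to 14817 CPM. Library 3 of colonic CD31+ Rspo3- cells stood apart with 10927 CPM of fibroblast markers (1619 and 2233 CPM in its companions), as did library 3 of colonic CD31- Rspo3+ cells with 24421 CPM of 10 immune markers (1215 and 997 CPM in its companions). The latter library also held 2150 CPM of epithelial markers (217 and 45.1 CPM in its companions) and 41562 CPM of fibroblast markers (72333.5 and 74908 CPM). Results that change without either of these 2 libraries are given both ways.

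Kdr and Tie1 were higher in CD31+ cells in every tissue and Rspo3 gate, and Angpt2 was higher in CD31+ cells in all 4 comparisons as well. Vegfc changed direction with the Rspo3 gate, being higher in CD31+ cells among Rspo3- cells and lower in CD31+ cells among Rspo3+ cells. A gene is called when edgeR's quasi-likelihood test gave a Benjamini-Hochberg adjusted p under 0.05 over all genes tested. Among small intestinal Rspo3- cells 6 members rose and 0 fell in CD31+ cells, where 20.1% of all genes were higher and 21.6% were lower. None was lower at an unadjusted p under 0.05 (count of 0), and DESeq2 and both limma fits also called 0 lower. Among small intestinal Rspo3+ cells 5 members rose and 2 fell (16.9% and 19.6% of all genes). Among colonic Rspo3- cells 6 rose and 2 fell (16.1% and 16.4%), and among colonic Rspo3+ cells 3 rose and 2 fell (14.9% and 18.2%). The median log2 fold change of the 10 members was 2.71, 1.01, 1.74 and 0.44 in these comparisons, beside medians of all genes of -0.03, -0.01, -0.07 and -0.07. Under limma on the deposited log2(TPM + 1) values the split of all called genes turned to 5207 higher and 3575 lower in small intestinal Rspo3- cells (3823 and 4109 in edgeR), 4002 and 3080 in small intestinal Rspo3+ cells (3211 and 3739) and 4069 and 2504 in colonic Rspo3+ cells (2839 and 3475). Fewer cells of a type and less RNA per cell cannot be told apart in such bulk libraries.

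**Figure D1:**
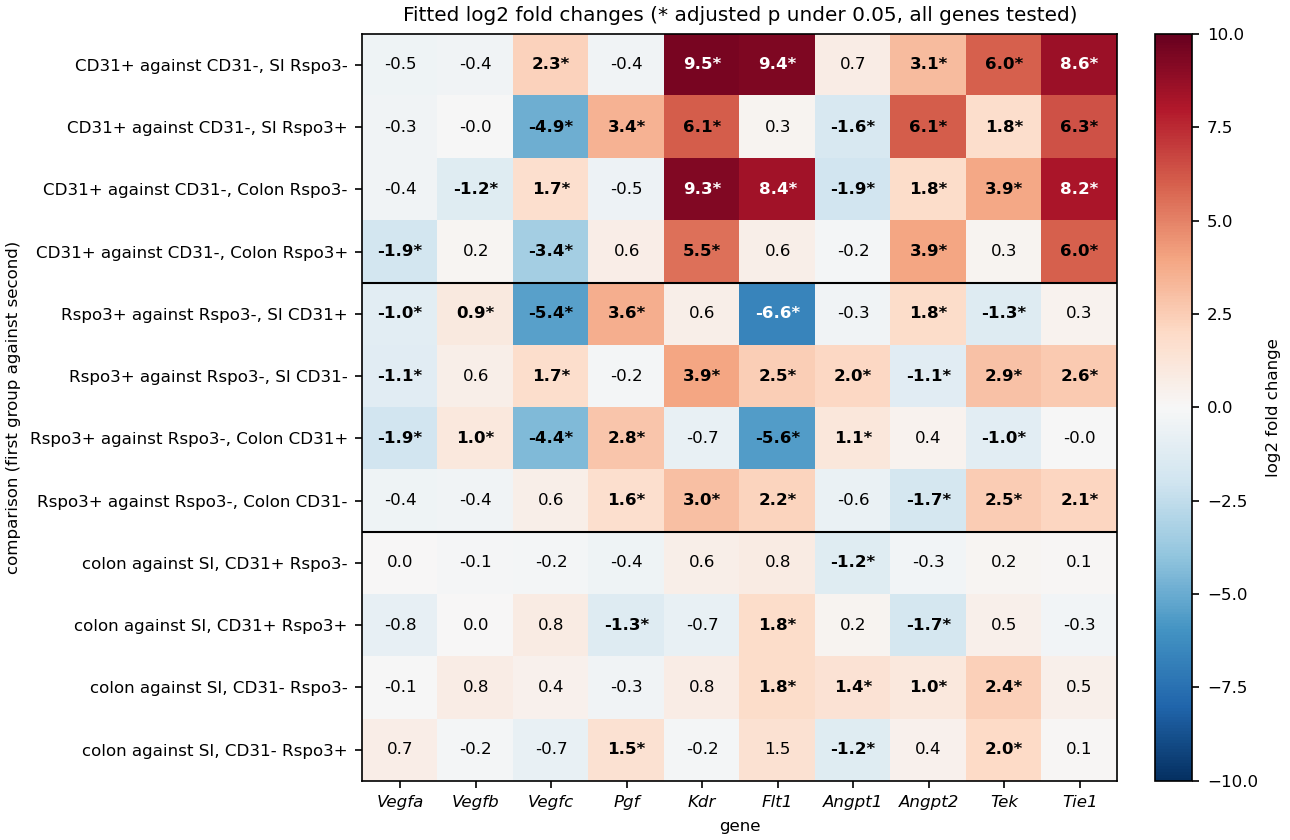
Fitted log2 fold changes of the 10 genes (columns) in the 12 comparisons of 2 groups (rows, the first-named group against the second), with an asterisk and bold type where the adjusted p was under 0.05. Kdr and Tie1 are strongly positive in all 4 CD31 rows, Vegfc and Flt1 are strongly negative in both Rspo3 rows of CD31+ cells, and the 4 tissue rows at the bottom hold few called values.

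Within CD31+ cells, the Rspo3+ gate held less Vegfa, Vegfc, Flt1 and Tek and more Pgf and Vegfb than the Rspo3- gate, in both tissues. In small intestinal CD31+ cells 3 members rose and 4 fell (9.23% of all genes were higher and 10.8% lower), and in colonic CD31+ cells 3 rose and 4 fell (9.52% and 13.6%). Within CD31- cells, the Rspo3+ gate held more of each of the 4 receptors. Sums of lymphatic markers and of the 15 endothelial markers were higher there too, while the sum of blood vessel markers was not. The 14 lymphatic markers summed to 1268 to 1925 CPM in Rspo3+ and 239 to 266 CPM in Rspo3- libraries of the small intestine, and to 878 to 1164 and 618 to 773 CPM in the colon. The 15 endothelial markers summed to 305 to 347 and 170.3 to 252 CPM in the small intestine and to 251 to 315 and 210.2 to 247 CPM in the colon. For the 18 blood vessel markers the sums were 408 to 548 and 416 to 482 CPM in the small intestine. In the colon they were 284 to 569 CPM in Rspo3+ and 487 to 716 CPM in Rspo3- libraries. Pecam1 itself rose with Rspo3 in colonic CD31- cells (log2 fold change 1.297 ± 0.32, adjusted p = 0.015) and was not called in the small intestine (adjusted p = 0.75). Of these lists only Nts and Tal1 were at 0, in small intestinal CD31- Rspo3- libraries, and the part of such cells in the receptor results was not tested. In small intestinal CD31- cells 6 members rose and 2 fell (16.1% and 14.3%), and in colonic CD31- cells 5 rose and 1 fell (4.80% and 4.34%). Only 3 members were called in the last comparison when the 6 compared libraries were fitted alone, as the text below details. Of all genes called in that comparison, 914 were higher and 827 lower, against 439 and 2867 in limma on log2 TPM and 487 and 665 with only the compared libraries. In small intestinal CD31- cells the 3064 higher and 2732 lower became 2559 and 3742 with only the compared libraries. Lower calls also outnumbered higher ones there with DESeq2 size factors (2329 higher and 3054 lower) and DESeq2's Wald test (2687 and 3310). The same held with no filter (2170 and 2552) and limma on log2 TPM (2835 and 2902), while limma voom gave 3554 and 3181. Median log2 fold changes of the members were 0.01, -0.39, 1.89 and 1.12, beside 0.00, -0.05, 0.11 and 0.00 over all genes.

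Vegfa, the principal angiogenic ligand, had its highest means in CD31- Rspo3- cells and its lowest in CD31+ Rspo3+ cells. Among Rspo3- cells CD31+ against CD31- did not pass in the small intestine (log2 fold change -0.47 ± 0.29, adjusted p = 0.22) or colon (log2 fold change -0.36 ± 0.29, adjusted p = 0.38). Nor did it pass among small intestinal Rspo3+ cells (log2 fold change -0.34 ± 0.29, adjusted p = 0.41). In the small intestine, CD31- Rspo3- libraries held 76.3, 66.1 and 101 CPM and CD31- Rspo3+ libraries 39.9, 37.3 and 32.7 CPM. CD31+ Rspo3- libraries held 54.1, 63.0 and 58.9 CPM and CD31+ Rspo3+ libraries 30.0, 28.9 and 27.6 CPM. Every Rspo3+ library lay below every Rspo3- library of its CD31 gate. Vegfa fell in Rspo3+ cells of the CD31- gate (log2 fold change -1.15 ± 0.30, adjusted p = 0.0057) and of the CD31+ gate (log2 fold change -1.02 ± 0.30, adjusted p = 0.018). The call in the CD31+ gate was lost at adjusted p = 0.0522 without library 2 of the Rspo3- group and at 0.0592 without library 3 of the Rspo3+ group. In the CD31- gate the 11 epithelial markers summed to 74.3 to 260.4 CPM in Rspo3+ and 7540.4 to 14817 CPM in Rspo3- libraries. Fibroblast markers went the other way (above), and the part of either list in the Vegfa result was not tested.

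In the colon, Vegfa was 73.9, 79.3 and 79.9 CPM in CD31- Rspo3- libraries and 81.6, 48.1 and 46.0 CPM in CD31- Rspo3+ libraries. It was 76.1, 41.8 and 64.3 CPM in CD31+ Rspo3- libraries and 21.3, 7.22 and 19.7 CPM in CD31+ Rspo3+ libraries. The CD31+ Rspo3+ libraries were the lowest of all 24 and overlapped no other group, while the colonic CD31- groups overlapped because of library 1 of the Rspo3+ group. Vegfa fell in CD31+ Rspo3+ cells against CD31+ Rspo3- cells (log2 fold change -1.92 ± 0.30, adjusted p = 8.8e-05) and against CD31- Rspo3+ cells (log2 fold change -1.86 ± 0.30, adjusted p = 7.2e-05). Within colonic CD31- cells the difference did not pass (log2 fold change -0.41 ± 0.29, adjusted p = 0.45).

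Vegfb, a ligand of Flt1 linked to fatty acid handling by endothelium, varied little, with means from 10.1 to 23.9 CPM over the 8 groups. Each group in the order of its means overlapped the next. The lowest groups were the CD31+ Rspo3- cells of the small intestine (10.7, 9.00 and 12.6 CPM) and of the colon (8.19, 11.2 and 11.04 CPM). The corresponding Rspo3+ libraries held 25.9, 19.5 and 16.2 CPM in the small intestine and 14.9, 24.04 and 24.10 CPM in the colon, with no overlap in either tissue. Vegfb rose in Rspo3+ cells of the small intestinal CD31+ gate (log2 fold change 0.94 ± 0.28, adjusted p = 0.023) and of the colonic CD31+ gate (log2 fold change 1.05 ± 0.28, adjusted p = 0.010). The small intestinal call was lost in 5 of 12 alternatives: adjusted p was 0.0503 with no filter on low counts, 0.0558 when the compared libraries were fitted alone, 0.0621 and 0.0917 without Rspo3- library 1 or 2, and 0.126 without Rspo3+ library 1. The colonic call was lost without Rspo3- library 1 (0.0583). In colonic Rspo3- cells Vegfb fell in the CD31+ gate against CD31- libraries of 18.1, 24.1 and 29.4 CPM (log2 fold change -1.24 ± 0.28, adjusted p = 0.0024).

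Vegfc, the chief lymphatic growth factor, was high in CD31+ Rspo3- cells, intermediate in CD31- Rspo3+ cells and lowest in CD31+ Rspo3+ cells. In small intestinal CD31+ cells it was 119.6, 99.5 and 104 CPM in Rspo3- libraries and 1.79, 4.35 and 1.07 CPM in Rspo3+ libraries. In colonic CD31+ cells the values were 89.4, 122 and 68.3 CPM and 7.46, 2.88 and 2.65 CPM. The gates did not overlap in either tissue, and Vegfc was 43.3-fold lower in Rspo3+ cells of the small intestine (log2 fold change -5.44 ± 0.44, adjusted p = 2.4e-08) and 21.5-fold lower in the colon (log2 fold change -4.43 ± 0.41, adjusted p = 1.5e-07). Without library 2 of the small intestinal Rspo3+ group the log2 fold change was -6.17, and without library 1 of the colonic Rspo3+ group it was -5.02. These Rspo3+ libraries were those with the high lymphatic marker sums, whose part in the result was not tested.

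In small intestinal CD31- cells Vegfc ran the other way. It was 25.2, 22.9 and 18.1 CPM in Rspo3- and 79.8, 71.6 and 70.3 CPM in Rspo3+ libraries and rose without overlap (log2 fold change 1.74 ± 0.36, adjusted p = 0.0011). In colonic CD31- cells it was 23.8, 33.3 and 31.7 CPM in Rspo3- and 41.1, 55.8 and 37.7 CPM in Rspo3+ libraries, which did not overlap but did not pass the test (log2 fold change 0.60 ± 0.35, adjusted p = 0.34). Against CD31- cells, Vegfc in CD31+ cells was therefore higher among Rspo3- cells of the small intestine (log2 fold change 2.29 ± 0.37, adjusted p = 5.5e-05) and colon (log2 fold change 1.65 ± 0.36, adjusted p = 0.0015). It was lower among Rspo3+ cells of the small intestine (log2 fold change -4.89 ± 0.43, adjusted p = 2.0e-08, and -5.52 without CD31+ library 2) and colon (log2 fold change -3.37 ± 0.40, adjusted p = 1.4e-06, and -4.01 without CD31+ library 1).

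Pgf, placental growth factor, a ligand of Flt1 but not of Kdr, had its highest levels in CD31+ Rspo3+ cells. Small intestinal CD31+ libraries held 15.5, 16.9 and 14.3 CPM in the Rspo3- gate and 139, 169.9 and 258 CPM in the Rspo3+ gate. Colonic CD31+ libraries held 6.54, 14.5 and 13.2 CPM and 63.9, 82.3 and 86.6 CPM. No Rspo3+ library came near the Rspo3- range, and Pgf was 12.1-fold higher in the small intestine (log2 fold change 3.60 ± 0.28, adjusted p = 1.8e-08) and 6.80-fold higher in the colon (log2 fold change 2.76 ± 0.27, adjusted p = 3.1e-07). Among CD31- cells the tissues differed. Small intestinal values of 20.9, 24.5 and 14.6 CPM in Rspo3- and 17.0, 17.5 and 17.4 CPM in Rspo3+ libraries overlapped (log2 fold change -0.21 ± 0.26, adjusted p = 0.60). Colonic values of 17.2, 12.8 and 17.4 CPM and 52.9, 54.0 and 41.5 CPM did not overlap, and Pgf rose in the Rspo3+ gate (log2 fold change 1.64 ± 0.26, adjusted p = 4.7e-04). Among colonic Rspo3+ cells, Pgf in the CD31+ gate against the CD31- gate did not pass (log2 fold change 0.65 ± 0.25, adjusted p = 0.057) although the libraries did not overlap. It passed in 4 of 12 alternatives, with adjusted p = 0.028 in limma voom, 0.0104 in limma on log2 TPM, 0.0107 with only the compared libraries and 0.0457 without CD31+ Rspo3+ library 1.

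**Figure D2:**
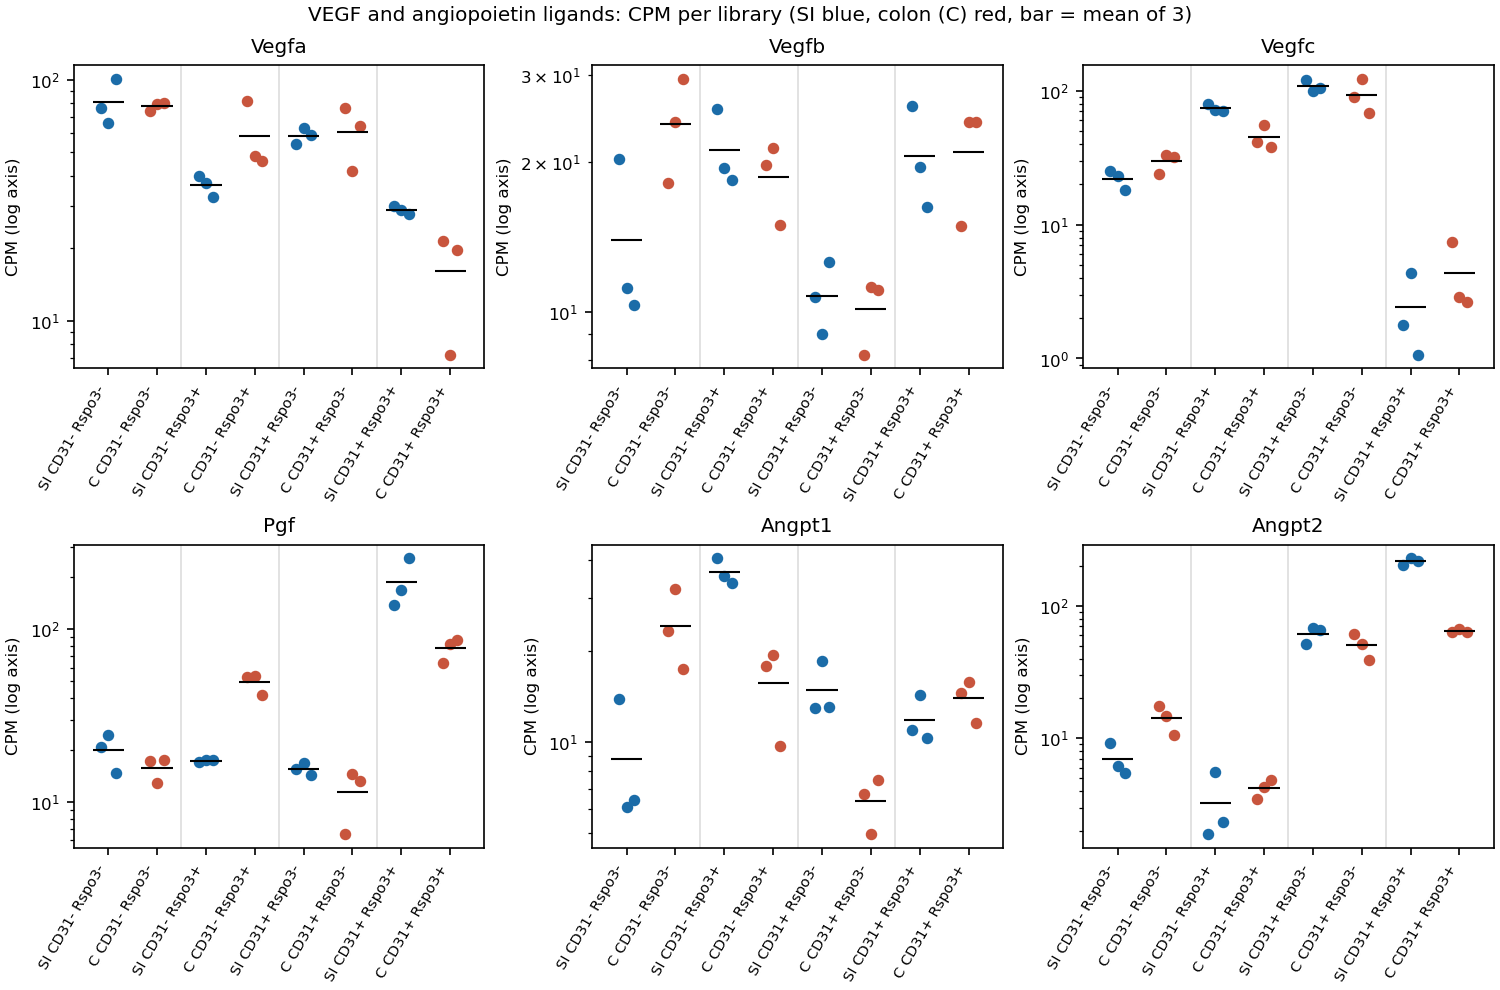
CPM of the 6 ligands on log axes, 1 point for each library (small intestine blue, colon red), with a bar at the mean of 3 libraries for each of the 8 groups. Vegfc drops to between 1.07 and 7.46 CPM in the CD31+ Rspo3+ groups at the right of its panel, where Pgf reaches 63.9 to 258 CPM.

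Angpt1, the activating ligand of Tek, was highest in small intestinal CD31- Rspo3+ cells. Those libraries held 40.4, 35.4 and 33.6 CPM against 13.9, 6.11 and 6.43 CPM in CD31- Rspo3- libraries and 10.9, 14.3 and 10.3 CPM in CD31+ Rspo3+ libraries of the same tissue. They overlapped neither group. Angpt1 rose in the Rspo3+ gate of small intestinal CD31- cells (log2 fold change 2.04 ± 0.33, adjusted p = 9.5e-05) and fell from CD31- to CD31+ among small intestinal Rspo3+ cells (log2 fold change -1.62 ± 0.32, adjusted p = 4.4e-04). The summed fibroblast markers moved with it (above), and their part was not tested. Among small intestinal Rspo3- cells, CD31+ libraries held 13.0, 18.5 and 13.0 CPM and the comparison did not pass (log2 fold change 0.74 ± 0.32, adjusted p = 0.068), but it did at 0.0209 in limma on log2 TPM and at 0.00504 without CD31- library 1.

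Colonic Angpt1 followed another order. It was 23.3, 31.9 and 17.4 CPM in CD31- Rspo3- libraries, 17.8, 19.4 and 9.67 CPM in CD31- Rspo3+ libraries and 14.5, 15.8 and 11.6 CPM in CD31+ Rspo3+ libraries. The lowest of all groups was colonic CD31+ Rspo3- at 6.74, 4.97 and 7.50 CPM, and it overlapped none of the other colonic groups. Angpt1 in that group was lower than in CD31- Rspo3- cells (log2 fold change -1.92 ± 0.33, adjusted p = 1.6e-04), and CD31+ Rspo3+ cells exceeded it (log2 fold change 1.12 ± 0.32, adjusted p = 0.015). The latter call was lost without library 2 of the Rspo3- group (0.0742) or library 2 of the Rspo3+ group (0.0573). Within colonic CD31- cells the Rspo3 gates overlapped (log2 fold change -0.63 ± 0.32, adjusted p = 0.24). Fibroblast markers were higher in the Rspo3+ gate there, at 41562 to 74908 CPM against 32941 to 39184 CPM, and their part was not tested. The row of Angpt1 shares genome positions with the antisense gene Gm17473, and the kit does not mark strand, so reads of the pair cannot be told apart. Gm17473 held 179 counts in all and Angpt1 7501.

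Angpt2, the context-dependent antagonist of Tek, was higher in CD31+ than in CD31- cells in every comparison, with its peak in small intestinal CD31+ Rspo3+ cells. Small intestinal libraries held 203, 228 and 217 CPM in that group and 51.8, 68.2 and 65.5 CPM in CD31+ Rspo3- cells. The CD31- groups held 9.28, 6.20 and 5.51 CPM (Rspo3-) and 1.90, 5.52 and 2.33 CPM (Rspo3+). Both CD31+ groups lay clear of both CD31- groups and of each other. Angpt2 rose in CD31+ cells among Rspo3- (log2 fold change 3.13 ± 0.31, adjusted p = 1.4e-07) and Rspo3+ cells (log2 fold change 6.06 ± 0.35, adjusted p = 1.3e-10, and 6.67 without CD31- library 2). By Rspo3 gate it rose in CD31+ cells (log2 fold change 1.81 ± 0.29, adjusted p = 1.0e-04) and fell in CD31- cells (log2 fold change -1.13 ± 0.30, adjusted p = 0.0078). In that last comparison the highest Rspo3+ library met the lowest Rspo3- library, and the call was lost without library 1 of the Rspo3- group (0.0600) or library 1 of the Rspo3+ group (0.0536). Without library 2 of the Rspo3+ group the log2 fold change was -1.73.

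Colonic Angpt2 was 64.0, 66.9 and 63.3 CPM in CD31+ Rspo3+ libraries and 61.6, 51.2 and 39.0 CPM in CD31+ Rspo3- libraries. The CD31- groups held 17.6, 14.7 and 10.5 CPM (Rspo3-) and 3.51, 4.33 and 4.87 CPM (Rspo3+). The CD31+ groups lay close together and did not pass the test against each other (log2 fold change 0.35 ± 0.28, adjusted p = 0.40), though their libraries did not overlap. Angpt2 rose in CD31+ cells among Rspo3- (log2 fold change 1.83 ± 0.29, adjusted p = 8.1e-05) and Rspo3+ cells (log2 fold change 3.92 ± 0.32, adjusted p = 1.5e-08), and fell in Rspo3+ cells of the CD31- gate (log2 fold change -1.74 ± 0.31, adjusted p = 1.0e-03). Markers of the vessel wall were lower with it, as 10 smooth muscle markers summed to 574 to 853 CPM in colonic CD31- Rspo3+ and 3479 to 4887 CPM in Rspo3- libraries, and 10 pericyte markers to 214 to 278 and 485 to 796 CPM. In small intestinal CD31- cells, where Angpt2 fell too, both sums overlapped between the Rspo3 gates. Smooth muscle markers summed there to 1340 to 1899 CPM in Rspo3+ and 1649 to 2445 CPM in Rspo3- libraries. Pericyte markers summed to 524 to 627 and 495 to 660 CPM. No gene of either list was at 0, and their part was not tested. The Angpt2 gene lies on the opposite strand of Mcph1, whose row held 2381 counts in all against 20816 for Angpt2, and unstranded reads of the overlap cannot be told apart.

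Per transcript length, the ligand that led differed from group to group. In CD31- Rspo3- cells Vegfa led with 35.9 ± 5.05 TPM (mean ± SD, n = 3) in the small intestine and 42.9 ± 5.56 TPM in the colon, where the ranges of Vegfa and Vegfb (33.5 ± 8.06 TPM) overlapped. In CD31+ Rspo3- cells Vegfc led with 83.1 ± 4.57 TPM in the small intestine and 66.7 ± 24.3 TPM in the colon, above and apart from Vegfa (30.9 ± 2.72 and 30.1 ± 8.40 TPM). In CD31+ Rspo3+ cells Pgf led with 195 ± 57.2 TPM in the small intestine and 78.8 ± 9.14 TPM in the colon, while Vegfc had the lowest means, 1.94 ± 1.80 and 2.80 ± 1.99 TPM, and overlapped Angpt1 in both tissues. Angpt2 was next after Pgf in small intestinal CD31+ Rspo3+ cells at 95.2 ± 5.55 TPM, apart from its neighbours above and below. The CD31- Rspo3+ cells were led by Vegfc in the small intestine (45.4 ± 3.13 TPM) and by Pgf in the colon (42.7 ± 9.51 TPM), the latter overlapping Vegfa (24.9 ± 10.7 TPM).

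The 4 receptors shared their rise in CD31+ Rspo3- cells, so the 250 bases before each RefSeq start site are shown (GRCm38.p6, 5′ to 3′ on the gene's own strand). Capitals mark matches to words that hold the GGAA core of ETS factors, a family with wide roles in endothelial gene expression. The words searched on both strands were CCGGAA and also CAGGAA and AGGAAG, which can overlap. Kdr lies on the minus strand of chromosome 5 with its window at chr5:75978456-75978705, and Flt1 on the same strand with its window at chr5:147726012-147726261. Tek lies on the plus strand of chromosome 4 (chr4:94739039-94739288) and Tie1 on its minus strand (chr4:118489850-118490099). The Kdr and Tie1 windows overlap their GENCODE genes, which reach chr5:75978458 and chr4:118490061, so the RefSeq and GENCODE start sites differ there.
Kdr: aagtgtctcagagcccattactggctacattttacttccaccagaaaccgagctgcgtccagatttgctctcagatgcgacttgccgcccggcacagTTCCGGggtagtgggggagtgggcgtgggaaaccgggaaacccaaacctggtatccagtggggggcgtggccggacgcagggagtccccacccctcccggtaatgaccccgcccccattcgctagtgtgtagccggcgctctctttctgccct
Flt1: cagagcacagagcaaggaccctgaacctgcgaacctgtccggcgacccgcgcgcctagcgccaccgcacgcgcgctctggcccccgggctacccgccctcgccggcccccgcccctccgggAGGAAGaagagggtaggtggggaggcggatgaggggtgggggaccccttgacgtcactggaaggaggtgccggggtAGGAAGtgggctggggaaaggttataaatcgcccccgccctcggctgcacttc
Tek: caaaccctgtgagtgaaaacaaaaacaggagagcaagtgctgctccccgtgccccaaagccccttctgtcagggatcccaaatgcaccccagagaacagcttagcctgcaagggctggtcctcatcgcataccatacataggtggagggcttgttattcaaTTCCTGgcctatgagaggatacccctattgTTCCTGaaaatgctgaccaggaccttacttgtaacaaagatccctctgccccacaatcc
Tie1: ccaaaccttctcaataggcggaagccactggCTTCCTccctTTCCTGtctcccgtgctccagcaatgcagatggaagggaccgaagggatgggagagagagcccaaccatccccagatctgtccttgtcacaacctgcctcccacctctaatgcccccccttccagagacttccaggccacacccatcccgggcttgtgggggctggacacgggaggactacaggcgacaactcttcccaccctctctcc
Kdr held 1 match, to CCGGAA, and Flt1, Tek and Tie1 held 2 each. In Flt1 both were AGGAAG on the gene's strand, in Tek both were CAGGAA on the other strand, and in Tie1 there was 1 each of AGGAAG and CAGGAA on the other strand. At least 1 of the words occurred in 48.8% of the 32851 promoters of the same length (CCGGAA in 12.0%, CAGGAA in 25.7% and AGGAAG in 29.5%). The matches describe the letters only and are no evidence of binding. Promoter sequences were found for 8 of the 10 members.

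Kdr, the main VEGF receptor, marked CD31+ cells of both Rspo3 gates. Small intestinal CD31+ libraries held 1128, 879.7 and 861 CPM in the Rspo3- gate and 1504, 1599.9 and 1128 CPM in the Rspo3+ gate. Colonic CD31+ libraries held 1741, 1274 and 1193 CPM and 844, 754 and 924 CPM. The gates lay apart in the colon and nearly met in the small intestine (1128 CPM at the highest Rspo3- and at the lowest Rspo3+ library), and in neither did Kdr pass the test by Rspo3 (adjusted p = 0.64 and 0.50). The colonic difference had a log2 fold change of -0.74 ± 0.70 and passed with only the compared libraries (0.0229).

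In CD31- cells Kdr was low. It was 0.208, 1.90 and 2.22 CPM in small intestinal and 6.31, 0.843 and 0.0478 CPM in colonic Rspo3- libraries, where the lowest rested on 1 count. It was 21.5, 27.0 and 14.7 CPM in small intestinal and 22.3, 8.13 and 25.6 CPM in colonic Rspo3+ libraries. Each Rspo3+ library exceeded each Rspo3- library. Kdr rose with Rspo3 in CD31- cells of the small intestine (log2 fold change 3.95 ± 0.84, adjusted p = 0.0013) and the colon (log2 fold change 3.02 ± 0.80, adjusted p = 0.020). The colonic call was lost when the compared libraries were fitted alone (0.225), without Rspo3- library 2 (0.0951) or 3 (0.0529) and without Rspo3+ library 1 (0.0563). Without Rspo3- library 1 or 3 its log2 fold change was 5.29 or 2.43 in the colon and 3.34 or 4.56 in the small intestine, and limma voom gave 4.59 and 4.64. Against these low levels, Kdr was higher in CD31+ cells among Rspo3- (log2 fold change 9.45 ± 1.03, adjusted p = 5.0e-07) and Rspo3+ cells (log2 fold change 6.07 ± 0.87, adjusted p = 1.1e-05) of the small intestine and among Rspo3- (log2 fold change 9.25 ± 1.01, adjusted p = 8.0e-07) and Rspo3+ cells (log2 fold change 5.49 ± 0.85, adjusted p = 3.7e-05) of the colon. Without CD31- library 1 or 3 the difference among Rspo3- cells was 8.85 or 10.06 in the small intestine and 11.47 or 8.66 in the colon.

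Flt1, the high-affinity receptor of Vegfa, Vegfb and Pgf, separated the CD31+ gates. Small intestinal CD31+ libraries held 988, 617 and 787 CPM in the Rspo3- gate and 8.81, 9.32 and 6.28 CPM in the Rspo3+ gate. Colonic CD31+ libraries held 1506, 1549 and 1199 CPM and 51.4, 18.2 and 18.5 CPM. The gap was far wider than the spread of either gate, and Flt1 was 97.2-fold lower in small intestinal (log2 fold change -6.60 ± 0.63, adjusted p = 2.0e-07) and 48.3-fold lower in colonic Rspo3+ cells (log2 fold change -5.59 ± 0.60, adjusted p = 8.1e-07). Without library 1 of the colonic Rspo3+ group the log2 fold change was -6.22. These gates also differed in their lymphatic and blood vessel marker sums, whose part was not tested.

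In CD31+ Rspo3+ cells Flt1 was no higher by the test than in CD31- Rspo3+ cells, which held 9.53, 4.18 and 6.56 CPM in the small intestine and 15.8, 8.20 and 34.1 CPM in the colon (log2 fold change 0.27 ± 0.52, adjusted p = 0.74 and log2 fold change 0.60 ± 0.50, adjusted p = 0.39). Without library 3 of the colonic CD31- Rspo3+ group, the one with the high immune markers, the colonic value was 1.301 (adjusted p = 0.0697). CD31- Rspo3- libraries held 0.381, 1.49 and 1.95 CPM in the small intestine and 6.43, 3.08 and 3.30 CPM in the colon. Their Rspo3+ counterparts were higher without overlap. Flt1 rose with Rspo3 in small intestinal (log2 fold change 2.48 ± 0.59, adjusted p = 0.0029) and colonic CD31- cells (log2 fold change 2.20 ± 0.53, adjusted p = 0.012). The colonic call was lost when the compared libraries were fitted alone (0.0828), without Rspo3- library 2 (0.0661) or 3 (0.0653) and without Rspo3+ library 3 (0.0666), where the log2 fold change was 1.50. Among Rspo3- cells Flt1 rose with CD31 in the small intestine (log2 fold change 9.36 ± 0.72, adjusted p = 5.6e-09) and colon (log2 fold change 8.39 ± 0.68, adjusted p = 1.5e-08).

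Tek, the angiopoietin receptor also called Tie2, was not confined to CD31+ cells. Small intestinal CD31+ libraries held 602, 618 and 485 CPM in the Rspo3- gate and 227, 244 and 213 CPM in the Rspo3+ gate. Colonic CD31+ libraries held 719.7, 748 and 522 CPM and 339, 295 and 327 CPM. Tek fell in Rspo3+ cells of the CD31+ gate in the small intestine (log2 fold change -1.32 ± 0.29, adjusted p = 0.0024) and the colon (log2 fold change -1.05 ± 0.29, adjusted p = 0.011), with no overlap. Pecam1 fell there too (log2 fold change -1.43 ± 0.32, adjusted p = 0.0026 and log2 fold change -1.06 ± 0.31, adjusted p = 0.018). The 15 endothelial markers summed to 5461 to 5760 CPM in Rspo3+ and 6265 to 7933 CPM in Rspo3- libraries of the small intestine. In the colon they summed to 5045 to 6219 and 6365 to 8816 CPM, and their part was not tested. In CD31- cells Tek went the other way by Rspo3 gate. Rspo3- libraries held 13.0, 3.80 and 9.19 CPM in the small intestine and 54.0, 46.5 and 36.2 CPM in the colon. Rspo3+ libraries held 63.9, 73.2 and 65.5 CPM in the small intestine and 326, 288 and 175 CPM in the colon. Tek rose in both tissues (log2 fold change 2.94 ± 0.31, adjusted p = 1.1e-06 and log2 fold change 2.53 ± 0.30, adjusted p = 2.7e-05) without overlap.

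The colonic CD31- Rspo3+ cells thus held as much Tek as some CD31+ cells. Against colonic CD31+ Rspo3+ cells the difference did not pass (log2 fold change 0.28 ± 0.29, adjusted p = 0.48) and the libraries overlapped. In the other settings CD31+ cells were higher, in small intestinal Rspo3- (log2 fold change 6.01 ± 0.36, adjusted p = 2.0e-10), small intestinal Rspo3+ (log2 fold change 1.76 ± 0.29, adjusted p = 7.2e-05) and colonic Rspo3- cells (log2 fold change 3.86 ± 0.32, adjusted p = 2.0e-08). Of the 3 colonic CD31- Rspo3+ libraries, the lowest in Tek was library 3, and without it the rise with Rspo3 in colonic CD31- cells was 2.75 ± 0.30 on the log2 scale (adjusted p = 7.6e-06). The 15 endothelial markers together summed to 251 to 315 CPM in these libraries. Per length, Tek amounted to 36.3%, 34.0% and 19.6% of the summed TPM of 15 endothelial markers there. This share was 4.44% to 7.98% in colonic CD31- Rspo3- and 5.41% to 5.98% in small intestinal CD31- Rspo3+ libraries. In colonic CD31+ libraries it was 3.20% to 3.43% in the Rspo3- gate and 1.50% to 2.26% in the Rspo3+ gate.

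Tie1, the partner receptor of Tek, was the steadiest receptor over the Rspo3 gates of CD31+ cells. Small intestinal CD31+ libraries held 716, 586 and 696 CPM in the Rspo3- gate and 848, 907 and 779 CPM in the Rspo3+ gate. Colonic CD31+ libraries held 818, 737 and 609 CPM and 674, 673 and 766 CPM. By Rspo3 the tests gave adjusted p = 0.54 and 0.96, with log2 fold changes of 0.34 ± 0.34 and -0.03 ± 0.34. CD31- Rspo3- libraries held 1.45, 1.57 and 2.22 CPM in the small intestine and 3.90, 2.13 and 1.67 CPM in the colon. CD31- Rspo3+ libraries held 6.38, 13.6 and 11.5 CPM in the small intestine and 10.9, 4.79 and 17.8 CPM in the colon. All CD31- libraries lay far below all CD31+ libraries, and within CD31- cells the Rspo3+ libraries lay above the Rspo3- libraries. Tie1 rose with CD31 in small intestinal Rspo3- (log2 fold change 8.57 ± 0.48, adjusted p = 8.7e-11) and Rspo3+ cells (log2 fold change 6.33 ± 0.42, adjusted p = 6.5e-10) and in colonic Rspo3- (log2 fold change 8.15 ± 0.46, adjusted p = 2.4e-10) and Rspo3+ cells (log2 fold change 5.98 ± 0.42, adjusted p = 1.8e-09). It rose with Rspo3 in CD31- cells of the small intestine (log2 fold change 2.58 ± 0.39, adjusted p = 4.5e-05) and of the colon (log2 fold change 2.14 ± 0.37, adjusted p = 1.0e-03), where the call was lost with only the compared libraries (0.0837).

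**Figure D3:**
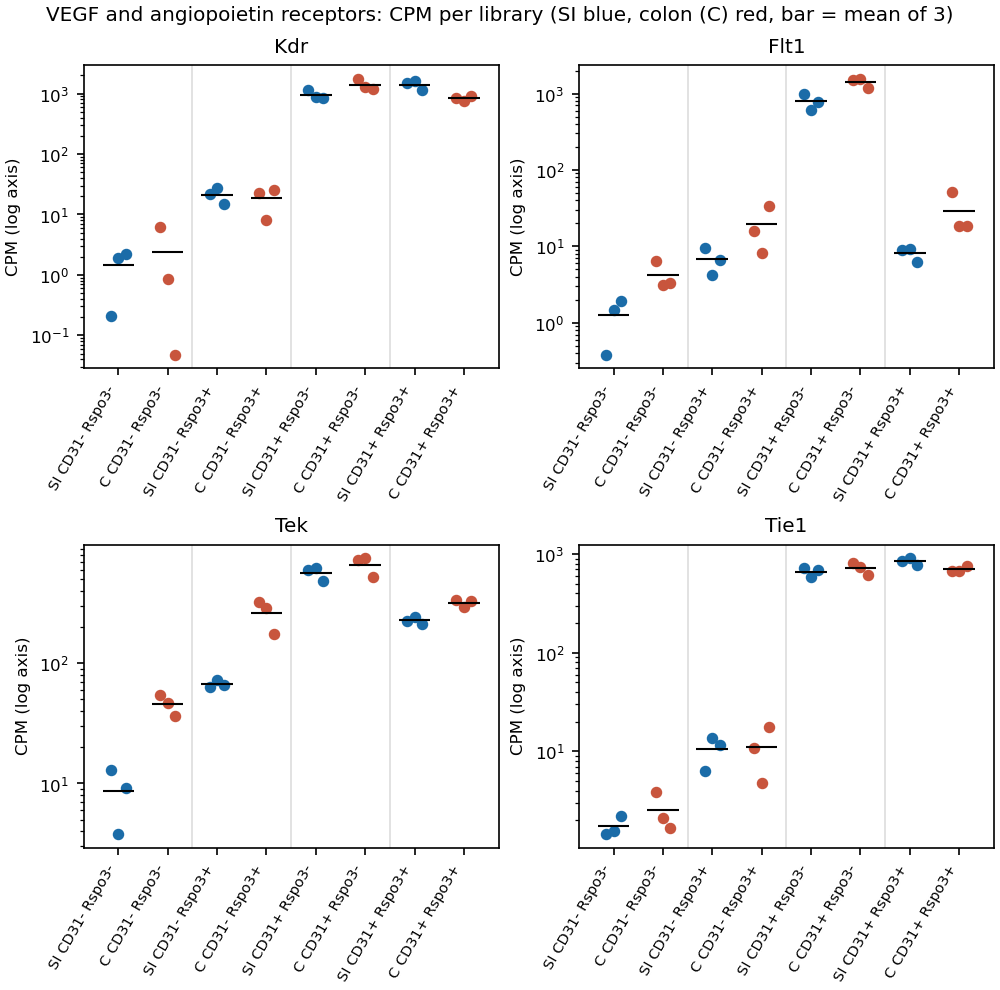
CPM of the 4 receptors on log axes, 1 point for each library (small intestine blue, colon red), with a bar at the mean of 3 libraries for each of the 8 groups. Kdr and Tie1 stay high in all 4 CD31+ groups on the right, Flt1 is high only in the CD31+ Rspo3- pair, and Tek climbs to 175 to 326 CPM in colonic CD31- Rspo3+ cells.

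**Figure D4:**
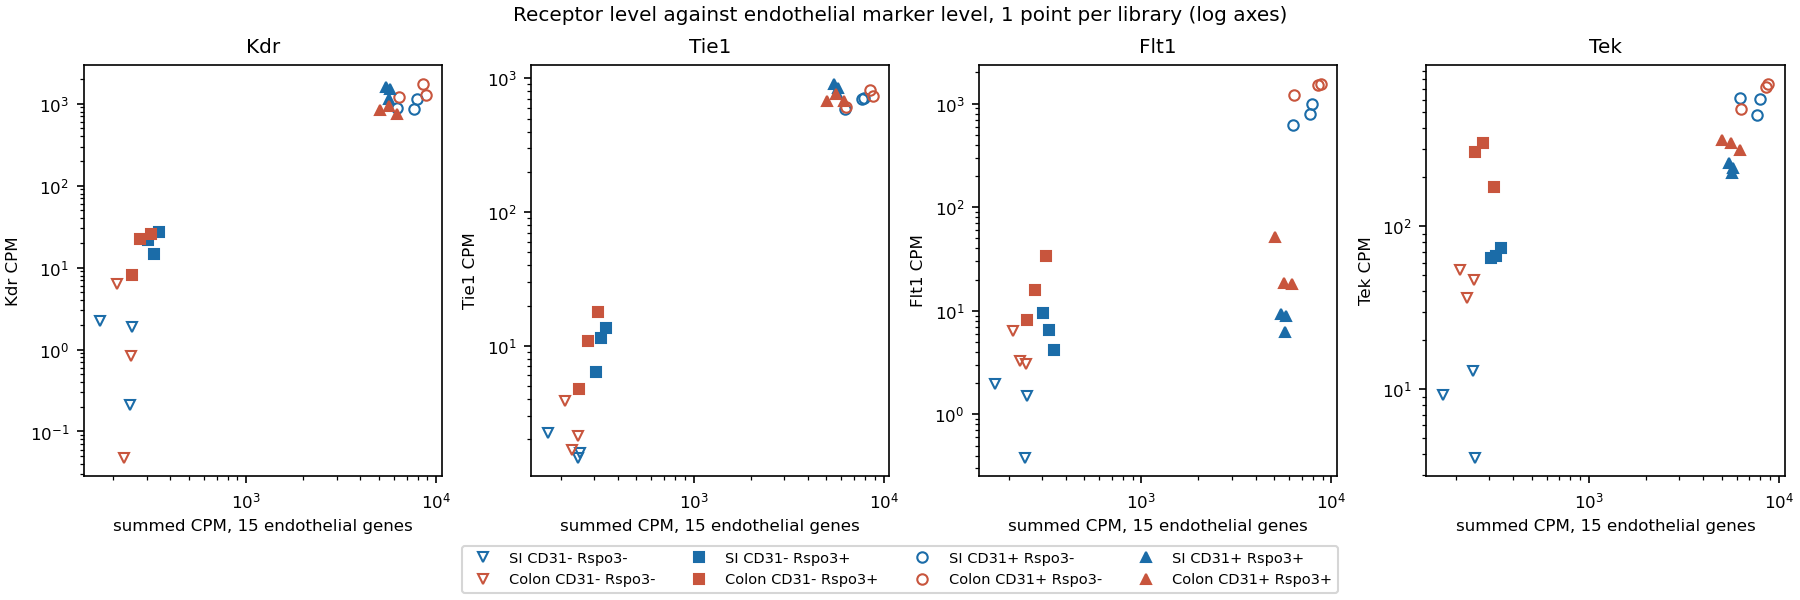
CPM of each receptor (vertical, log axis) against the summed CPM of 15 endothelial marker genes (horizontal, log axis), 1 point for each of 24 libraries, with shape and fill for the CD31 and Rspo3 gates and colour for the tissue. Kdr and Tie1 climb with the markers, the Flt1 points of CD31+ Rspo3+ cells (6.28 to 51.4 CPM) fall far below those of CD31+ Rspo3- cells, and the colonic CD31- Rspo3+ points of Tek stand beside CD31+ libraries at a marker sum of 251 to 315 CPM.

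Ratios within a library, which do not depend on its scaling, showed the same contrasts per transcript length. Flt1 to Kdr was 0.00645, 0.00650 and 0.00638 in small intestinal and 0.0828, 0.0276 and 0.0256 in colonic CD31+ Rspo3+ libraries. It was 1.14, 0.933 and 1.16 in small intestinal and 1.20, 1.65 and 1.42 in colonic CD31+ Rspo3- libraries. Flt1, the receptor of Pgf, was thus scarce beside Kdr in the cells where Pgf was highest. Angpt2 to Angpt1 was 22.8, 19.3 and 26.0 in small intestinal CD31+ Rspo3+ and 0.0563, 0.188 and 0.0827 in small intestinal CD31- Rspo3+ libraries. In the colon the same ratio was 5.32, 4.87 and 6.57 and 0.237, 0.266 and 0.608, and in CD31+ Rspo3- libraries it was 4.84, 4.63 and 6.18 (small intestine) and 11.2, 13.3 and 6.26 (colon). All CD31+ libraries had more Angpt2 than Angpt1 per length, and all Rspo3+ CD31- libraries had less. Tie1 to Tek was 0.0394, 0.0199 and 0.118 in colonic CD31- Rspo3+ libraries and 2.27, 2.60 and 2.67 in colonic CD31+ Rspo3+ libraries. Small intestinal CD31+ Rspo3+ libraries had the highest Tie1 to Tek ratios at 4.27, 4.23 and 4.16.

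**Figure D5:**
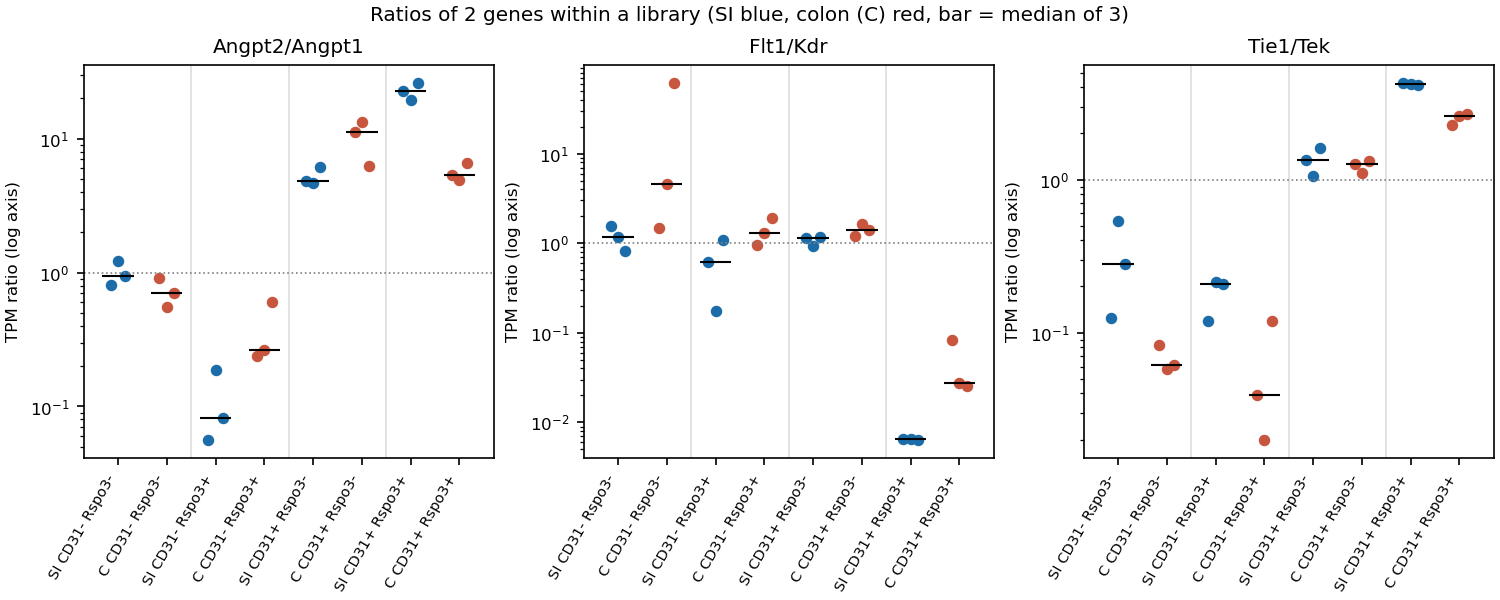
Ratios of TPM of 2 genes within a library on log axes, 1 point for each library (small intestine blue, colon red), a bar at the median of 3 libraries and a dotted line at equal levels. The Angpt2 to Angpt1 ratio lies above the line in every CD31+ library, and the Flt1 to Kdr ratio is lowest in the CD31+ Rspo3+ libraries (0.00638 to 0.0828).

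Between colon and small intestine few members were called, and which ones depended on the gate. In CD31+ Rspo3- cells 0 members rose and 1 fell in the colon, where 2.72% of all genes were higher and 1.71% lower. No member was higher at an unadjusted p under 0.05, and DESeq2 and both limma fits called 0 higher. The gene that fell was Angpt1 (log2 fold change -1.21 ± 0.32, adjusted p = 0.035), and its call was lost in limma voom (0.0559), with only the compared libraries (0.0929), without small intestinal library 2 (0.119) and without colonic library 1 (0.0889) or 2 (0.135). In CD31+ Rspo3+ cells 1 member rose and 2 fell (2.83% and 3.52%). Pgf (log2 fold change -1.28 ± 0.26, adjusted p = 0.0039) and Angpt2 (log2 fold change -1.74 ± 0.29, adjusted p = 7.2e-04) fell in the colon. Flt1 rose (log2 fold change 1.84 ± 0.52, adjusted p = 0.039) from a low level, but the call was lost in limma voom (0.0777), without any 1 of the 3 small intestinal libraries (0.0948 to 0.143) and without colonic library 1 (0.264), where the log2 fold change was 1.17. Kdr was not called (log2 fold change -0.75 ± 0.70, adjusted p = 0.63). Its means were 841 CPM in the colon and 1411 CPM in the small intestine. The libraries did not overlap, and Kdr passed with only the compared libraries (0.0303). The median log2 difference of the members was -0.02 and -0.12 in the CD31+ Rspo3- and CD31+ Rspo3+ comparisons, against 0.04 and 0.00 over all genes.

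In CD31- Rspo3- cells 4 members rose and 0 fell in the colon (8.79% and 8.81% of all genes), and 0 were lower at an unadjusted p under 0.05 or in DESeq2 and both limma fits. Tek rose (log2 fold change 2.37 ± 0.31, adjusted p = 1.6e-05), as did Angpt1 (log2 fold change 1.45 ± 0.32, adjusted p = 0.0034), Angpt2 (log2 fold change 1.02 ± 0.29, adjusted p = 0.019) and Flt1 (log2 fold change 1.80 ± 0.59, adjusted p = 0.039). Angpt2 was not called without small intestinal library 2 (0.0788) or 3 (0.110) or colonic library 1 (0.0961) or 2 (0.0581). Flt1 was called in only 3 of 12 alternatives, and its adjusted p reached 0.169. It was lost with DESeq2 size factors (0.0553), limma voom (0.169), limma on log2 TPM (0.162) and only the compared libraries (0.0873). It was lost as well without small intestinal library 1 (0.167) or 2 (0.0770) and without colonic library 1 (0.169), 2 (0.0526) or 3 (0.0517). In CD31- Rspo3+ cells 2 members rose and 1 fell (3.62% and 3.40%). Tek (log2 fold change 1.96 ± 0.30, adjusted p = 3.3e-04) and Pgf (log2 fold change 1.51 ± 0.26, adjusted p = 0.0011) rose and Angpt1 fell (log2 fold change -1.22 ± 0.32, adjusted p = 0.024). The Angpt1 call was lost without any 1 of the small intestinal libraries (0.0605 to 0.0852) and without colonic library 3 (0.122). Median log2 differences of the members were 0.76 and 0.25, against 0.10 and -0.01 over all genes. Tek was thus the member higher in the colon in both CD31- gates. In these gates fibroblast markers summed to 32941 to 39184 CPM in colonic and 20121 to 27256 CPM in small intestinal Rspo3- libraries, and to 41562 to 74908 and 106407 to 118107 CPM in Rspo3+ libraries. In CD31- Rspo3- libraries, lymphatic markers summed to 618 to 773 CPM in the colon and 239 to 266 CPM in the small intestine, smooth muscle markers to 3479 to 4887 and 1649 to 2445 CPM and epithelial markers to 1475 to 5574 and 7540.4 to 14817 CPM. The part of these cell types in the differences was not tested. Under limma on log2 TPM the split of all calls was 415 higher and 585 lower in CD31+ Rspo3- cells (518 and 326 in edgeR), 3696 and 1634 in CD31- Rspo3- cells (1675 and 1678) and 432 and 897 in CD31- Rspo3+ cells (689 and 648).

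Whether the Rspo3 difference itself differed was tested with contrasts of contrasts. Between CD31+ and CD31- cells, 8 members differed in the small intestine (24.3% of all genes called in either direction) and 10 in the colon (17.0%). Among CD31- cells, 2 members differed between colon and small intestine (8.38%). Pgf rose more in the colon (difference of log2 fold changes 1.85 ± 0.37, adjusted p = 0.0034), and the Angpt1 difference was -2.67 ± 0.45 (adjusted p = 9.8e-04). Among CD31+ cells edgeR called 0 members (1.93% of all genes), while 4 had an unadjusted p under 0.05. There DESeq2 and the fit of only the compared libraries called 2 each, and limma voom and limma on log2 TPM 1 each. Angpt2 was nearest to the threshold (-1.45 ± 0.40, adjusted p = 0.069) and was called in all 4 of these. The 2 differences of each such contrast share no library.

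A list of 30 further genes held other ligands and receptors, coreceptors, enzymes that process ligands, hypoxia factors and targets of VEGF, and all 30 were tested. In CD31+ against CD31- cells 16 rose and 7 fell among small intestinal Rspo3- cells (20.1% and 21.6% of all genes), 13 and 10 among small intestinal Rspo3+ cells (16.9% and 19.6%), 16 and 7 among colonic Rspo3- cells (16.1% and 16.4%) and 9 and 13 among colonic Rspo3+ cells (14.9% and 18.2%). By Rspo3 gate, 4 rose and 11 fell in small intestinal CD31+ cells (9.23% and 10.8%) and 2 and 11 in colonic CD31+ cells (9.52% and 13.6%). Among small intestinal CD31- cells 14 rose and 2 fell (16.1% and 14.3%), and among colonic CD31- cells 9 and 2 (4.80% and 4.34%). Flt4, the Vegfc receptor, is itself among the lymphatic markers. It was 2029, 2374 and 1262 CPM in small intestinal CD31+ Rspo3+ libraries and 248, 176 and 335 CPM in CD31+ Rspo3- libraries (log2 fold change 2.90 ± 0.56, adjusted p = 7.4e-04). In the colon the values were 1498, 1167 and 1844 CPM and 114, 118 and 97.5 CPM (log2 fold change 3.77 ± 0.59, adjusted p = 6.8e-05). The gates did not overlap. Flt4 was thus highest in the cells in which Vegfc was lowest, and per length Kdr amounted to 0.712 to 0.945 of Flt4 in small intestinal and 0.530 to 0.682 in colonic CD31+ Rspo3+ libraries, against 2.72 to 5.29 and 11.4 to 16.1 in CD31+ Rspo3- libraries.

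Neuropilins, coreceptors of the VEGF family, split in opposite directions. Nrp1, a coreceptor for Vegfa that is among the blood vessel markers, was 807, 594 and 741 CPM in small intestinal CD31+ Rspo3- and 9.96, 20.1 and 20.7 CPM in CD31+ Rspo3+ libraries (log2 fold change -5.41 ± 0.37, adjusted p = 3.4e-09). It fell in the colonic CD31+ gate too (log2 fold change -4.79 ± 0.35, adjusted p = 9.6e-09). Nrp2, a coreceptor for Vegfc, was 175, 123 and 148 CPM and 1201, 1083 and 804 CPM in the small intestinal gates (log2 fold change 2.79 ± 0.28, adjusted p = 4.0e-07) and rose likewise in the colon (log2 fold change 1.83 ± 0.27, adjusted p = 4.1e-05). In CD31- cells Nrp1 was not called by Rspo3 in the small intestine (log2 fold change 0.68 ± 0.30, adjusted p = 0.10) or colon (log2 fold change -0.22 ± 0.30, adjusted p = 0.74). Vegfd, another lymphatic ligand, was a gene of CD31- Rspo3+ cells, with 46.5, 46.5 and 50.5 CPM in the small intestine and 51.4, 62.8 and 37.7 CPM in the colon. It rose with Rspo3 in CD31- cells of the small intestine (log2 fold change 3.39 ± 0.36, adjusted p = 9.8e-07) and colon (log2 fold change 2.47 ± 0.34, adjusted p = 1.1e-04), and was lower in CD31+ than CD31- Rspo3+ cells (log2 fold change -5.42 ± 0.40, adjusted p = 2.3e-09 and log2 fold change -4.88 ± 0.39, adjusted p = 8.2e-09).

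Ptprb, a phosphatase that restrains Tek, was 883, 522 and 583 CPM in small intestinal CD31+ Rspo3- and 119.8, 129.6 and 82.3 CPM in CD31+ Rspo3+ libraries (log2 fold change -2.58 ± 0.52, adjusted p = 0.0010), without overlap. It rose with CD31 in small intestinal Rspo3- cells (log2 fold change 9.84 ± 0.75, adjusted p = 4.5e-09). Epas1, a hypoxia-inducible transcription factor, fell with Rspo3 in small intestinal CD31+ cells (log2 fold change -4.31 ± 0.36, adjusted p = 4.0e-08). Nr4a1, a nuclear receptor induced by VEGF, fell with Rspo3 in colonic CD31+ cells (log2 fold change -2.61 ± 0.25, adjusted p = 2.1e-07) and was lower in CD31+ than in CD31- cells among colonic Rspo3+ cells (log2 fold change -3.17 ± 0.26, adjusted p = 1.1e-08). Between tissues 2 of the 30 rose in colonic CD31+ Rspo3- cells and 0 fell (2.72% and 1.71% of all genes), and 2 were lower at an unadjusted p under 0.05. In CD31+ Rspo3+ cells 2 rose and 3 fell (2.83% and 3.52%). In CD31- Rspo3- cells 11 rose and 0 fell (8.79% and 8.81%), with 2 lower at an unadjusted p under 0.05, and in CD31- Rspo3+ cells 3 rose and 2 fell (3.62% and 3.40%). Rcan1, a calcineurin inhibitor induced by VEGF, was higher in colonic CD31- Rspo3+ cells (log2 fold change 2.54 ± 0.33, adjusted p = 8.8e-05), as was Thbs1, an inhibitor of angiogenesis (log2 fold change 1.50 ± 0.25, adjusted p = 7.4e-04). Nrp2 was higher in colonic CD31- Rspo3- cells (log2 fold change 1.46 ± 0.27, adjusted p = 6.9e-04). The Rspo3 difference was lower in CD31+ than in CD31- cells for 17 of the 30 in the small intestine and 14 in the colon, among them Nrp1 (-6.08 ± 0.46, adjusted p = 1.7e-08) and Nr4a1 (-3.64 ± 0.34, adjusted p = 2.2e-07) in the small intestine and Thbs1 (-2.80 ± 0.35, adjusted p = 7.5e-06) in the colon. It was higher for 2 and 1. Among all genes it was lower for 2503 and higher for 2117 in the small intestine, and lower for 1980 and higher for 1260 in the colon, where limma on log2 TPM gave 1511 and 2723.

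Genes with the most similar pattern were sought among 11475 genes by Pearson correlation of log2 CPM over the 24 libraries. These values describe libraries that share 8 groups, so they mainly reflect group means. Tie1 was closest to Egfl7 (r = 0.995), S1pr1 (0.994) and Rassf9 (0.993), and Kdr to Emcn (0.991), Rassf9 (0.983) and Robo4 (0.980). Flt1 was closest to Sox17 (0.990), Rasa4 (0.973) and Ehd4 (0.972), and Tek, with lower values, to Sox7 (0.938), Elovl5 (0.935) and Ebf3 (0.926). Vegfc went with Sparcl1 (0.985), Gdpd5 (0.967) and Unc119b (0.962), and Angpt2 with Uba7 (0.967), Pcp4l1 (0.960) and Nqo1 (0.959). Pgf went with Prelp (0.918), Ston2 (0.913) and Spsb1 (0.898). Vegfa (Lurap1l 0.874, Serpinb1a 0.867, Usp2 0.837), Vegfb (Tmsb10 0.873, Cbx5 0.869, Nap1l1 0.860) and Angpt1 (Golim4 0.824, Zfp260 0.809, Vamp2 0.806) had less close neighbours. Among the members themselves the most negative correlation was that of Pgf with Vegfc (-0.85).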

How the data were processed

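RNA of 24 libraries was measured, 3 in each of 8 groups. Per the labels' protocols, SMART-Seq v4 chemistry was used, which covers the whole transcript without recording its strand. The submitters' processing notes name the tools Salmon 1.3.0 and R 4.0.1 and the build mm10. One deposited table holds estimated counts, all of them whole. The deposited log2 values are log2(TPM + 1) and were turned back into TPM. How transcripts were summed to genes is not given in the sources used here. Columns were matched to groups by the signs in their names, and they carry no replicate number, so library numbers follow column order and pair nothing. Symbols came from GENCODE M21 (54166 of 54418 gene IDs, 99.5%).

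Tests across genes used edgeR 4.0.16 under R 4.3.3 (glmQLFit and glmQLFTest) with TMM scaling, filterByExpr (minimum count 10, minimum total 15; 19050 genes), 1 mean per group, all 24 libraries in 1 model, and a Benjamini-Hochberg adjusted p threshold of 0.05 over all genes. Values after ± are SE for log2 fold changes and SD for levels. The SE of an edgeR value is the size of its log2 fold change divided by the square root of its F statistic. The common biological coefficient of variation was 0.429. Alternatives were DESeq2 (1.42.0) size factors, no filter, DESeq2's Wald test, limma (3.58.1) voom, limma on the deposited log2 values, only the compared libraries, and each library left out in turn. In the list of 30 further genes, Flt4, Nrp1 and Nrp2 were always named, with the 3 of smallest adjusted p in each kind of comparison, and like-patterned genes were the 3 of highest correlation among genes with a mean of at least 10 CPM in a group. The members, lists and rules were chosen with earlier results of these data known. Promoters are from RefSeq. Protein sequences were not used here.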

Additional observations from a re-analysis of the deposited data

Results flagged for a closer look

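For 20 results the difference between Rspo3+ and Rspo3- cells itself differed, by edgeR's quasi-likelihood test of a contrast of contrasts (adjusted p under 0.05), between the CD31 gates of a tissue or between the tissues of a gate. Each value below is 1 log2 fold change of Rspo3+ against Rspo3- minus the other.

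Between the CD31+ and CD31- gates of the small intestine (CD31+ minus CD31-), the difference was -7.18 for Vegfc, -9.08 for Flt1, -4.26 for Tek, -3.39 for Kdr, -2.37 for Angpt1 and -2.24 for Tie1. It was 3.81 for Pgf and 2.93 for Angpt2. Kdr had an adjusted p of 0.026 and was lost without library 1 of the CD31- Rspo3- (0.0677) or CD31+ Rspo3- group (0.0526), library 2 of the CD31- Rspo3+ (0.0564) or CD31+ Rspo3+ group (0.0546) and library 3 of the CD31+ Rspo3+ group (0.0582). Its value was -2.78 or -4.00 without library 1 or 3 of the CD31- Rspo3- group, and that of Angpt2 was 3.54 without library 2 of the CD31- Rspo3+ group. Tek fell with Rspo3 in CD31+ cells and rose with it in CD31- cells, and Vegfc and Flt1 did the same. Angpt2 did the opposite.

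In the colon the same difference was -7.79 for Flt1, -5.03 for Vegfc, -3.76 for Kdr, -3.58 for Tek, -2.17 for Tie1 and -1.51 for Vegfa. It was 2.10 for Angpt2, 1.76 for Angpt1, 1.41 for Vegfb and 1.12 for Pgf. Some of these calls were lost in an alternative. Pgf (adjusted p = 0.039) was called in only 9 of 18 alternatives, was lost with only the compared libraries (0.0567) and ranged from 0.0560 to 0.0923 in the 8 of 12 fits without 1 colonic library that lost it, which were those without libraries 1 or 3 of the CD31- Rspo3- group, library 1 of the CD31+ Rspo3- group, libraries 1, 2 or 3 of the CD31- Rspo3+ group and libraries 2 or 3 of the CD31+ Rspo3+ group. Vegfa was lost in limma on log2 TPM (0.107), with only the compared libraries (0.0843) and without library 1 of the CD31+ Rspo3- (0.0507) or CD31- Rspo3+ group (0.0612). Vegfb was lost without library 1 of the CD31+ Rspo3- group (0.0549), library 3 of the CD31- Rspo3- group (0.0576) and library 2 (0.0503) or 3 (0.0510) of the CD31+ Rspo3+ group. Kdr was lost with only the compared libraries (0.0642) and without library 2 of the CD31- Rspo3- group (0.0529), and its value was -5.98 or -3.16 without library 1 or 3 of that group. Without library 1 of the CD31+ Rspo3+ group the value was -8.43 for Flt1 and -5.62 for Vegfc, and without library 3 of the CD31- Rspo3+ group it was -7.09 for Flt1.

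Between the tissues, in CD31- cells (colon minus small intestine), the difference was 1.85 for Pgf and -2.67 for Angpt1. Both passed in all 18 alternatives. Pgf rose with Rspo3 in the colon and was not called in the small intestine. Angpt1 rose in the small intestine and was not called in the colon.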

How the results depend on the processing

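Of 160 results (10 genes in 16 comparisons), 85 were called, and 67 of these passed in every alternative run for them. Of the 75 not called, 60 stayed so in every alternative, and no called result changed direction. The number of members called moved by more than 1.5 times in 5 comparisons. By Rspo3 in colonic CD31- cells it was 6, against 3 with only the compared libraries and 4 to 6 with 1 library left out. Between tissues in CD31+ Rspo3- cells it was 1, against 0 with limma voom and 0 with only the compared libraries (0 to 1 with 1 library left out). In CD31- Rspo3- cells it was 4, and 2 to 4 with 1 library left out (2 without small intestinal library 2 or colonic library 1 or 2). For the tissue difference of the Rspo3 change it was 0 in CD31+ cells, against 2 with DESeq2, 1 with limma voom, 1 with limma on log2 TPM and 2 with only the compared libraries, and it was 2 in CD31- cells, against 4 with limma on log2 TPM (2 to 3 with 1 library left out). The cause was not tested. Over all genes, DESeq2 called 1531 in place of 844 (tissue, CD31+ Rspo3-), 1816 in place of 1209 (CD31+ Rspo3+), 2077 in place of 1337 (CD31- Rspo3+) and 809 in place of 367 (tissue difference of the Rspo3 change, CD31+). Limma on log2 TPM called 3306 in place of 1741 (Rspo3, colonic CD31-; 439 higher and 2867 lower in place of 914 and 827), 5330 in place of 3353 (tissue, CD31- Rspo3-; 3696 and 1634 in place of 1675 and 1678) and 3421 in place of 1597 (tissue difference of the Rspo3 change, CD31-; 1069 and 2352 in place of 935 and 662). Only the compared libraries gave 1152 in place of 1741 and 320 in place of 844. Leaving out 1 library gave as few as 1059 for Rspo3 in colonic CD31- cells (Rspo3+ library 1; 1072 without Rspo3- library 3). Between tissues it gave 523 (CD31+ Rspo3-, small intestinal library 2), 749 and 783 (CD31+ Rspo3+, colonic libraries 3 and 1), 1966 (CD31- Rspo3-, small intestinal library 3) and 731 to 816 (CD31- Rspo3+, any small intestinal library). For the tissue difference of the Rspo3 change it gave 233 in CD31+ cells (colonic Rspo3- library 1) and 841 to 1046 in CD31- cells (small intestinal Rspo3- library 3 and Rspo3+ libraries 1 and 2, colonic Rspo3- library 2 and Rspo3+ library 3). DESeq2 size factors moved the median of all genes by -0.11 (Rspo3, small intestinal CD31-) and 0.12 (tissue difference of the Rspo3 change, CD31-), and in the latter the calls went from 935 higher and 662 lower to 1096 and 470 (930 and 407 with no filter). Limma on log2 TPM moved the median by -0.23 (Rspo3, colonic CD31-), -0.19 (tissue difference of the Rspo3 change, CD31-), 0.13 (tissue, CD31- Rspo3-), 0.15 and 0.16 (CD31, small intestinal Rspo3- and colonic Rspo3+) and 0.24 (CD31 difference of the Rspo3 change, colon, 2723 higher and 1511 lower in place of 1260 and 1980). For the tissue difference in CD31+ cells, 122 higher and 245 lower became 195 and 251 in limma on log2 TPM and 140 and 166 with only the compared libraries, which gave 144 and 176 in place of 518 and 326 between tissues in CD31+ Rspo3- cells. Of the called member values, limma on log2(TPM + 1), where the added 1 shrinks changes of low levels, moved 20 by over 1.5 times in unlogged fold. All of these went toward 0, and all but 1 (Vegfc) were of Kdr, Flt1 or Tie1. On the log2 scale Kdr by Rspo3 went from 3.02 to 1.63 in colonic and from 3.95 to 2.11 in small intestinal CD31- cells. Limma voom moved 6, all of Kdr, away from 0. No paired analysis was possible because the columns carry no replicate number of the labels. Kdr was near the floor in CD31- Rspo3- cells. It was at 1 count in colonic library 3 of that gate, whose total of 19093274 counts was above the median of 17881736.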
